A study of Mus musculus with 24 samples.

Results

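The 31 genes described here form a panel for microglia, the resident immune cells of the brain, measured by RNA-seq of the mouse hippocampus. They were taken by name from a list of microglial genes, and all 31 were found among the 38355 genes of the deposited count tables. The series compared mice lacking the histone acetyltransferase gene Kat2a in neurons with control mice, each either naive or exposed to novelty. RNA came from the dissected CA1 subfield of C57BL/6J mice aged 3 to 5 months. The cKO novelty group had 7 libraries from Kat2a fl/fl mice carrying CamKII_alpha-cre+ after 15 min of novelty exposure, and the cKO naive group had 6 libraries from mice of that genotype without exposure. The control novelty group had 5 libraries from Kat2a fl/fl mice after 15 min of novelty exposure, and the control naive group had 6 libraries from unexposed Kat2a fl/fl mice. All groups therefore carried the floxed allele and only the cKO groups carried Cre. The labels name no cre-only group. The CamKII alpha promoter drives Cre in excitatory forebrain neurons, so microglia in cKO mice are not the cells in which deletion is intended. The labels do not say whether each library came from 1 mouse, so p-values measure the spread between these libraries.

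Microglia survey neural tissue with moving processes and depend on signals from neurons and other glia. Purinergic receptors read nucleotides released by active or damaged cells and steer these processes, fractalkine and colony stimulating factor receptors carry neuronal and trophic signals, and transforming growth factor beta signalling maintains the identity of the cells. Complement C1q, the Trem2 and Tyrobp receptor complex and lysosomal proteases serve the tagging, recognition and breakdown of material that microglia take up. The transcription factor PU.1, encoded by Spi1, binds a GAGGAA core and acts with Irf8 in the myeloid lineage.

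The libraries held 10.7 to 35.8 M reads assigned to genes (median 19.0 M). Kat2a had 31.2 to 39.3 CPM (counts scaled to library size, with library sizes adjusted by the trimmed mean of M values, TMM) in 13 cKO libraries, against 55.9 to 70.3 CPM in 11 control libraries. Summed over 9 immediate early genes, which neurons switch on with activity, levels were 725 to 1310 CPM in cKO novelty libraries and 267 to 342 CPM in cKO naive libraries, and 750 to 1010 CPM in control novelty libraries and 299 to 365 CPM in control naive libraries. Gene by gene, all 9 were higher with novelty in cKO mice. In control mice 8 were higher and 1 was lower (log2 fold change -0.52, adjusted p by edgeR not below 0.05). Markers of border macrophages, which share many genes with microglia, summed to 17.3 to 27.8 CPM over 10 genes. Most of this sum was Stab1, with group means of 13.7 to 13.9 CPM. In all, 8 lymphocyte and neutrophil markers summed to 0.0989 to 0.835 CPM, with 7 of the 8 under 10 reads in every library. Markers of CA1 pyramidal neurons summed to 737 to 1070 CPM over 4 genes, beside 53.5 to 252 CPM for 5 dentate granule cell markers. Control naive library 2 was the shallowest and stood apart from the others on a principal component. Levels of a gene in whole tissue cannot tell fewer microglia from less RNA per microglia.

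The 31 microglial genes were all detected, with 15 reads as the lowest count of any member in any library (Cd180, in cKO novelty library 7). Per length, Ctss, which encodes the lysosomal protease cathepsin S, was the highest, at a mean of 59.2 RPKM (reads scaled to library size and gene length) over 24 libraries. It was followed by Lgmn, the gene of the lysosomal protease legumain, at 47.6 RPKM, by the complement genes C1qb (45.2 RPKM) and C1qa (39.5 RPKM), and by the adaptor gene Tyrobp (25.3 RPKM). Above 10 RPKM were 10 members, and below 1 RPKM were 5, among them Ptprc, the gene of the leukocyte phosphatase CD45, at 0.216 RPKM. Summed over the 31 genes, levels were 821 to 949 CPM in cKO novelty libraries and 863 to 989 CPM in cKO naive libraries, and 855 to 897 CPM in control novelty libraries and 867 to 965 CPM in control naive libraries. These ranges overlapped between all 4 groups.

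**Figure D1:**
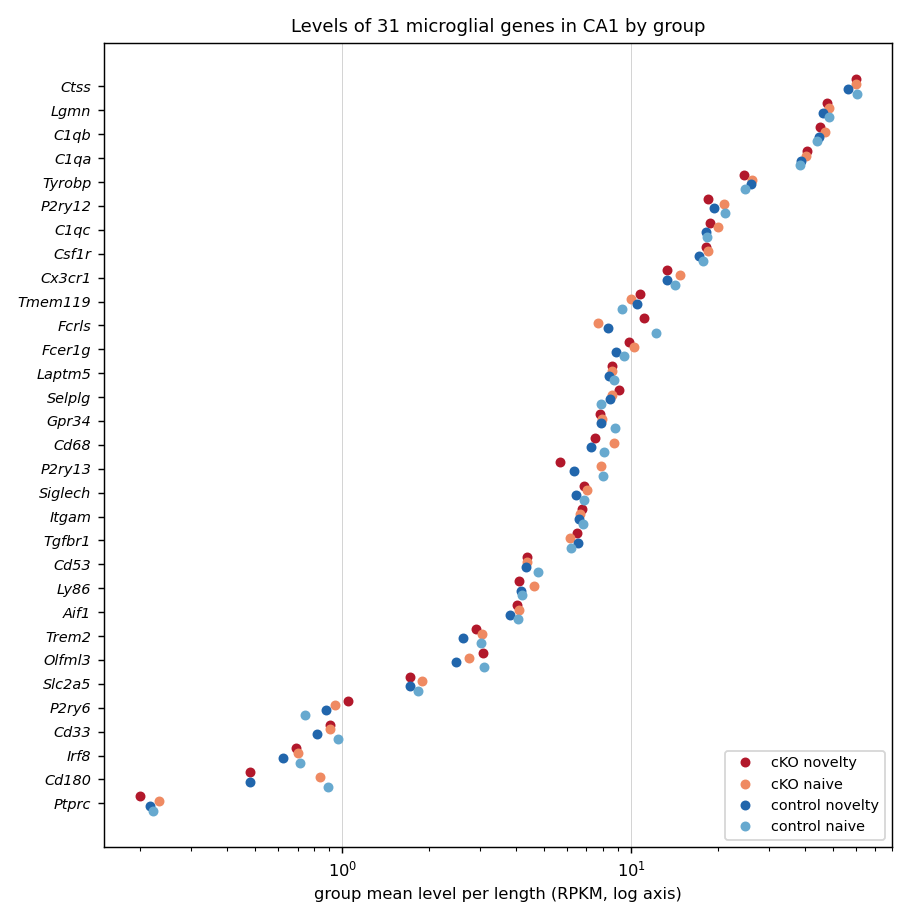
Mean level per length (RPKM, log axis) of each of the 31 microglial genes in the 4 groups, ordered by the mean over 24 libraries. The groups lie close together for most genes, with Ctss at 59.2 RPKM at the top and Ptprc at 0.216 RPKM at the bottom, and are spread widest for Cd180 and Fcrls.

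After 15 min of novelty exposure, 4 microglial genes were called lower than in naive mice and 1 was called higher. Averaged over both genotypes, the ADP receptor gene P2ry13 had a log2 fold change of -0.40, the Toll-like surface protein gene Cd180 one of -0.85, the lysosomal glycoprotein gene Cd68 one of -0.19 and the ADP receptor gene P2ry12 one of -0.16, whereas Tmem119, which encodes a membrane protein used as a microglial marker, had one of 0.14. The 4 decreases among 31 members stand beside 2.13% of 16744 genes called lower in the same fit, and the 1 increase beside 4.43% called higher (6.55% in either direction). Of 24 fits that each left out 1 library, 11 kept the call of P2ry12 and 12 that of Tmem119. The median log2 fold change of the 31 members was -0.06, against -0.01 over all genes tested, and 25 of 31 were negative and 6 positive, where 43% of all genes were positive. A gene was called where its adjusted p was below 0.05 over all genes tested, by the quasi-likelihood test of edgeR with Benjamini-Hochberg adjustment. In the same fit, 1 of 11 endothelial and pericyte markers was higher and 2 were lower (list median 0.01), 1 of 10 astrocyte markers was lower (median 0.01), 1 of 10 oligodendrocyte markers was lower (median -0.06) and 0 of 5 tested border macrophage markers passed (median -0.01), and their part in the microglial values was not tested.

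P2ry13 lies on the minus strand of chromosome 3 at 59207896 to 59210882, in the files' GRCm38 coordinates. It had 12.5, 14.4 and 15.6 CPM as the lowest, median and highest of the cKO novelty libraries, against 18.4, 20.1 and 21 CPM in cKO naive libraries. In control mice it had 17.6, 14.9, 15.7, 15.6 and 16.3 CPM in the 5 novelty libraries, against 18.9, 19.9 and 22.6 CPM as the lowest, median and highest of the naive libraries. Every novelty library of either genotype was below every naive library. The log2 fold change was -0.47 (SE 0.06, adjusted p by edgeR = 0.000298) in cKO mice and -0.34 (SE 0.06, adjusted p by edgeR = 0.0148) in control mice, and -0.40 (SE 0.04, adjusted p by edgeR = 2.02e-07) averaged over genotypes, a fall of 24.4% with a 95% interval of -28.8 to -19.8%. Without control novelty library 2 the call in control mice was lost (log2 fold change -0.30, adjusted p by edgeR = 0.0717). P2ry13 lies in an intron of Med12l, which runs on the plus strand, and the kit did not mark strand. Med12l itself had a log2 fold change of -0.03 for novelty averaged over genotypes (adjusted p by edgeR = 0.81). The part of Med12l reads in the counts of P2ry13 was not tested.

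Cd180, whose protein pairs with that of Ly86 at the surface of immune cells, lies on the plus strand of chromosome 13 at 102693558 to 102739629. Its counts were low, 15 to 112 reads a library. It had 0.806, 2.21 and 3.16 CPM as the lowest, median and highest of the cKO novelty libraries, against 2.93, 3.8 and 4.58 CPM in cKO naive libraries. In control mice it had 2.42, 2.22, 2.70, 1.89 and 1.60 CPM in novelty libraries, against 2.98, 4.21 and 4.97 CPM in naive libraries. The groups did not overlap in control mice, and in cKO mice the highest novelty library exceeded 2 of the naive ones. The change was -0.85 on the log2 scale averaged over genotypes (SE 0.14, adjusted p by edgeR = 0.000273), a fall of 44.4% with a 95% interval of -54.7 to -31.7%. Within control mice it was -0.87 (SE 0.17, adjusted p by edgeR = 0.0145), and without control novelty library 2 the adjusted p was 0.051. Within cKO mice it was -0.82 (SE 0.21) and missed the threshold (adjusted p by edgeR = 0.0543). In edgeR it passed there without cKO novelty library 3 (adjusted p = 0.0291) or 7 (adjusted p = 0.0424). Ly86 had 14.9 ± 2.18 CPM in cKO novelty and 16.7 ± 1.43 CPM in cKO naive libraries (SD, n = 7 and 6), and 15.1 ± 2.33 CPM in control novelty and 15.3 ± 2.90 CPM in control naive libraries (SD, n = 5 and 6). It had a log2 fold change of -0.09 averaged over genotypes (SE 0.08, adjusted p by edgeR = 0.641). Cd180 shares 4.0% of its exon bases with Mast4 on the other strand, which had a log2 fold change of 0.06 averaged over genotypes (adjusted p by edgeR = 0.412).

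Cd68, on the minus strand of chromosome 11 at 69664213 to 69666153, had 9.19, 9.39 and 9.66 CPM as the lowest, median and highest of the cKO novelty libraries, against 10.5, 10.9 and 11.6 CPM in cKO naive libraries. These groups did not overlap. In control mice it had 8.60, 7.93, 9.15, 10.4 and 9.39 CPM in novelty libraries, against 8.70, 10.3 and 11.0 CPM in naive libraries, which overlapped. Its log2 fold change was -0.22 in cKO mice (SE 0.05, adjusted p by edgeR = 0.0312), -0.17 in control mice (SE 0.09, adjusted p by edgeR = 0.564) and -0.19 averaged over genotypes (SE 0.05, adjusted p by edgeR = 0.0125). In cKO mice the call was lost, at adjusted p of 0.0537 to 0.0818, in 10 of the 13 fits that left out 1 library, namely cKO naive library 1, 2, 3, 4 or 6 or cKO novelty library 1, 2, 4, 5 or 7, and the average passed in all 24.

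P2ry12, whose product draws microglial processes towards ADP, is a neighbour of P2ry13 at 59216271 to 59262831 on the same strand. It shares 0.4% of its exon bases with Med12l on the other strand. It had 42.2, 48.2 and 49.0 CPM as the lowest, median and highest of the cKO novelty libraries, against 46.0, 54.7 and 58.0 CPM in cKO naive libraries. In control mice it had 54.3, 46.0, 47.4, 44.9 and 53.4 CPM in novelty libraries, against 47.7, 51.9 and 63.7 CPM in naive libraries. The groups overlapped in both genotypes. It passed in the average alone (log2 fold change -0.16, SE 0.05, adjusted p by edgeR = 0.0378), with -0.19 in cKO mice (SE 0.05, adjusted p by edgeR = 0.0697) and -0.13 in control mice (SE 0.08, adjusted p by edgeR = 0.618). Of the 24 fits that each left out 1 library, 11 kept the average call. It was lost without cKO novelty library 1, 2, 3 or 7, cKO naive library 1, 2, 5 or 6, control novelty library 2, 3 or 4, or control naive library 1 or 2 (adjusted p at most 0.0889). The third purinergic receptor gene, P2ry6, which encodes a UDP receptor, had 3.04 ± 0.604 CPM in cKO novelty and 2.72 ± 0.535 CPM in cKO naive libraries (SD, n = 7 and 6). In control mice it had 2.54 ± 0.336 CPM in novelty and 2.14 ± 0.438 CPM in naive libraries (SD, n = 5 and 6). Its log2 fold change of 0.18 averaged over genotypes (SE 0.11, adjusted p by edgeR = 0.459) had the opposite sign to those of P2ry12 and P2ry13 and did not pass.

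Tmem119, on the minus strand of chromosome 5 at 113793729 to 113800516, had 22.7, 25 and 27.9 CPM as the lowest, median and highest of the cKO novelty libraries, against 21, 23.5 and 24.5 CPM in cKO naive libraries. In control mice it had 25.3, 23.1, 22.5, 23.1 and 27.0 CPM in novelty libraries, against 20.4, 21.7 and 23.0 CPM in naive libraries. The groups overlapped in both genotypes. It rose by 9.82% averaged over genotypes (log2 fold change 0.14, SE 0.04, adjusted p by edgeR = 0.037), with 0.11 in cKO mice (SE 0.06, adjusted p by edgeR = 0.413) and 0.16 in control mice (SE 0.06, adjusted p by edgeR = 0.313). Under upper-quartile scaling, which sets library sizes by a high quantile of the counts, the adjusted p was 0.0761, and without the low-count filter 0.0654. The call was kept in 12 of 24 fits that left out 1 library. It was lost without cKO novelty library 1, 3 or 6, cKO naive library 3, 4 or 6, control novelty library 1 or 5, or control naive library 1, 2, 3 or 5 (adjusted p at most 0.09).

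**Figure D2:**
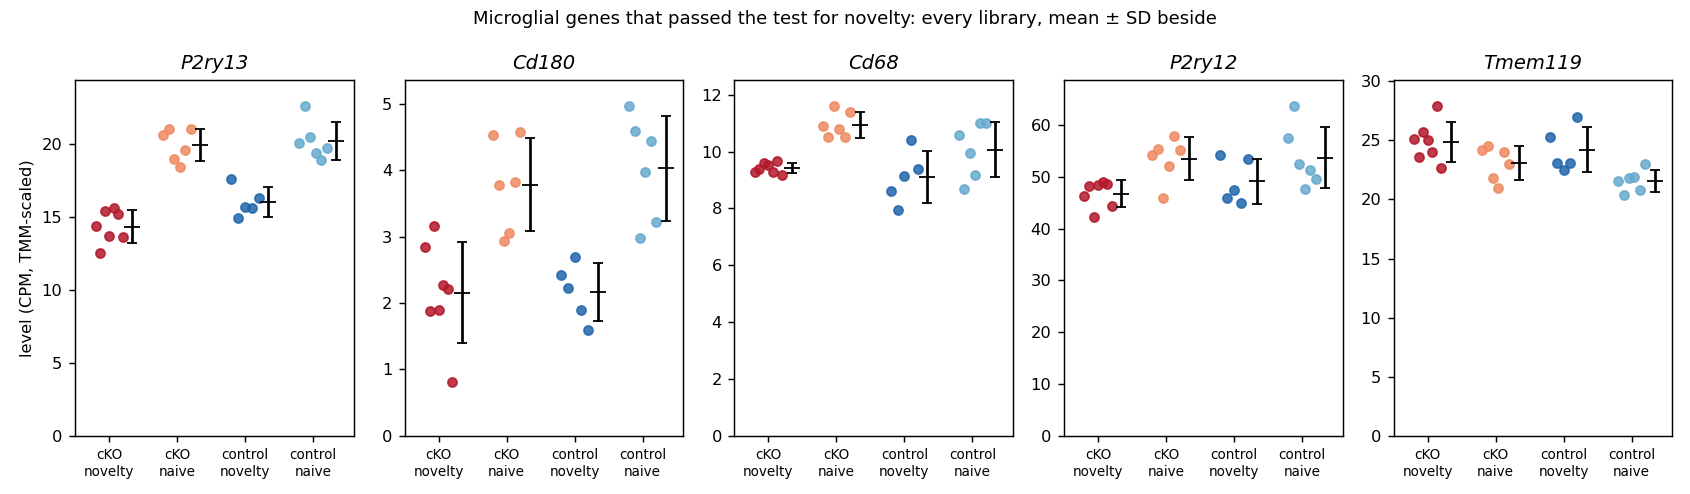
Level (CPM, TMM-scaled) of the 5 microglial genes that passed for novelty, with 1 point per library and the mean and SD beside the points, in cKO novelty (7), cKO naive (6), control novelty (5) and control naive (6) libraries. P2ry13 separates novelty from naive libraries in both genotypes, at 12.5 to 17.6 CPM against 18.4 to 22.6 CPM, whereas the groups of P2ry12 and Tmem119 overlap.

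Counted within a genotype, 2 of 31 members were called lower after novelty in cKO mice (P2ry13 and Cd68), where 0.484% of 16339 genes were lower and 2.41% were called in either direction. In control mice 2 of 31 were called lower (P2ry13 and Cd180), where 0.199% of 16100 genes were lower and 1.22% were called in either direction. No member was called higher within either genotype. In the authors' deposited table of cKO novelty over cKO naive mice, 4 of the 31 genes had an adjusted p below 0.05 (P2ry13, Cd180, Cd68 and P2ry12, all lower), where 4.41% of its 16228 genes did. In the authors' deposited table of control novelty over control naive mice, P2ry13 and Cd180 did, where 2.79% of its 16041 genes did.

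The promoters of the 4 genes that fell are shown because these genes were called lower in the average over genotypes, taken from RefSeq on GRCm38.p6, from 250 bases before to 50 after the start site, 5′ to 3′ on the gene's strand. Capitals mark GAGGAA, or its reverse complement. The windows are chr3:59210833-59211132 on the minus strand for P2ry13, chr11:69666121-69666420 on the minus strand for Cd68, chr3:59262936-59263235 on the minus strand for P2ry12 and chr13:102693297-102693596 on the plus strand for Cd180.
P2ry13: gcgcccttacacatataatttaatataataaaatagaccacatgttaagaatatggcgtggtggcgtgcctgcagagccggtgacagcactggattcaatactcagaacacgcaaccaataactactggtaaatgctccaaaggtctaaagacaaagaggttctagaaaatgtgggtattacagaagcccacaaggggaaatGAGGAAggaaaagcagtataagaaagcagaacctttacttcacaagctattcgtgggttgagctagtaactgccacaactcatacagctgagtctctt
Cd68: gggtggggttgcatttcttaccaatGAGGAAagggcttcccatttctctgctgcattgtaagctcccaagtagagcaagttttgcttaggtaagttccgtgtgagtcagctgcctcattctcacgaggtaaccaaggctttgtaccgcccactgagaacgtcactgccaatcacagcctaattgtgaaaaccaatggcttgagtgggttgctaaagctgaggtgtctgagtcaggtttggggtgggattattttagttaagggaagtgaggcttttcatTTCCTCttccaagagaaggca
P2ry12: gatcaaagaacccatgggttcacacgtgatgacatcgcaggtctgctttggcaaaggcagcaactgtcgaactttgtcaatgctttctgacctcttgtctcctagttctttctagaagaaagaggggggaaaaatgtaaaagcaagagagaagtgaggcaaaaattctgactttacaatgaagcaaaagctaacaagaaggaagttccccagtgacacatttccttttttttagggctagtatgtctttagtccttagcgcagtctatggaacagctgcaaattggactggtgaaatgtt
Cd180: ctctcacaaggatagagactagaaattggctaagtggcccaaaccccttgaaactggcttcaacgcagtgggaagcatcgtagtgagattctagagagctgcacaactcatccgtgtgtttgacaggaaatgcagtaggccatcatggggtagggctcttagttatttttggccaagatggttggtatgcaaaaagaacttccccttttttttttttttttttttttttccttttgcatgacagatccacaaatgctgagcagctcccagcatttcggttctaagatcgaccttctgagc
P2ry13 held 1 GAGGAA, Cd68 held 2, and P2ry12 and Cd180 held none in these windows. RefSeq promoters were matched for 24 of the 31 members, and 15 of them (62.5%) held GAGGAA on either strand, against 31.3% of 27025 genes. The pair GAAA, any 2 bases, GAAA, a form that interferon regulatory factors such as that of Irf8 recognise, was present in 2 of the 24 (8.33%), in Aif1 and Ctss, against 3.99% of all genes. These are matches of letters and do not show binding.

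The remaining 26 members did not pass for novelty in the average, and for 24 of them the 95% interval lay within a 1.25-fold change either way. The same held for 27 of all 31 members, the called P2ry12, Cd68 and Tmem119 included, so this bound does not separate called from uncalled genes. Among the receptors of trophic and neuronal signals, the fractalkine receptor gene Cx3cr1 had 60.1 ± 2.66 CPM in cKO novelty and 66.2 ± 5.06 CPM in cKO naive libraries (SD, n = 7 and 6), and 60.1 ± 4.99 CPM in control novelty and 64.1 ± 5.13 CPM in control naive libraries (SD, n = 5 and 6). Its average log2 fold change was -0.11 (SE 0.04, adjusted p by edgeR = 0.10), and it passed under upper-quartile scaling. Csf1r, which encodes the receptor that microglia need to survive, had a log2 fold change of -0.04 (SE 0.04, adjusted p by edgeR = 0.689). The lysophospholipid receptor gene Gpr34 had -0.09 and Tgfbr1, the type I receptor gene for transforming growth factor beta, had 0.08.

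The 3 subunit genes of complement C1q, C1qa, C1qb and C1qc, had log2 fold changes of 0.01, -0.01 and -0.05 for novelty (SE 0.04 to 0.06). Trem2, which encodes a lipid-sensing receptor, had -0.14 (SE 0.05, adjusted p by edgeR = 0.141), while its adaptor gene Tyrobp had -0.01 and the related adaptor gene Fcer1g had -0.08. The sialic acid receptor genes Siglech and Cd33 had -0.06 and -0.12. Of the leukocyte surface genes, the integrin gene Itgam had -0.01, the selectin ligand gene Selplg 0.08, Ptprc -0.12 and the tetraspanin gene Cd53 -0.06. The lysosomal genes other than Cd68 were all near 0, with Ctss at -0.05, Lgmn at -0.05 and Laptm5, a lysosomal membrane protein gene, at -0.03. Aif1, the gene of the actin-binding protein IBA1, had -0.06, the transcription factor gene Irf8 had -0.12 and the fructose transporter gene Slc2a5 had -0.12. None of these passed. In current annotation Itgam shares 68.7% and Csf1r 15.1% of exon bases with another gene, so their counts are less certain.

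**Figure D3:**
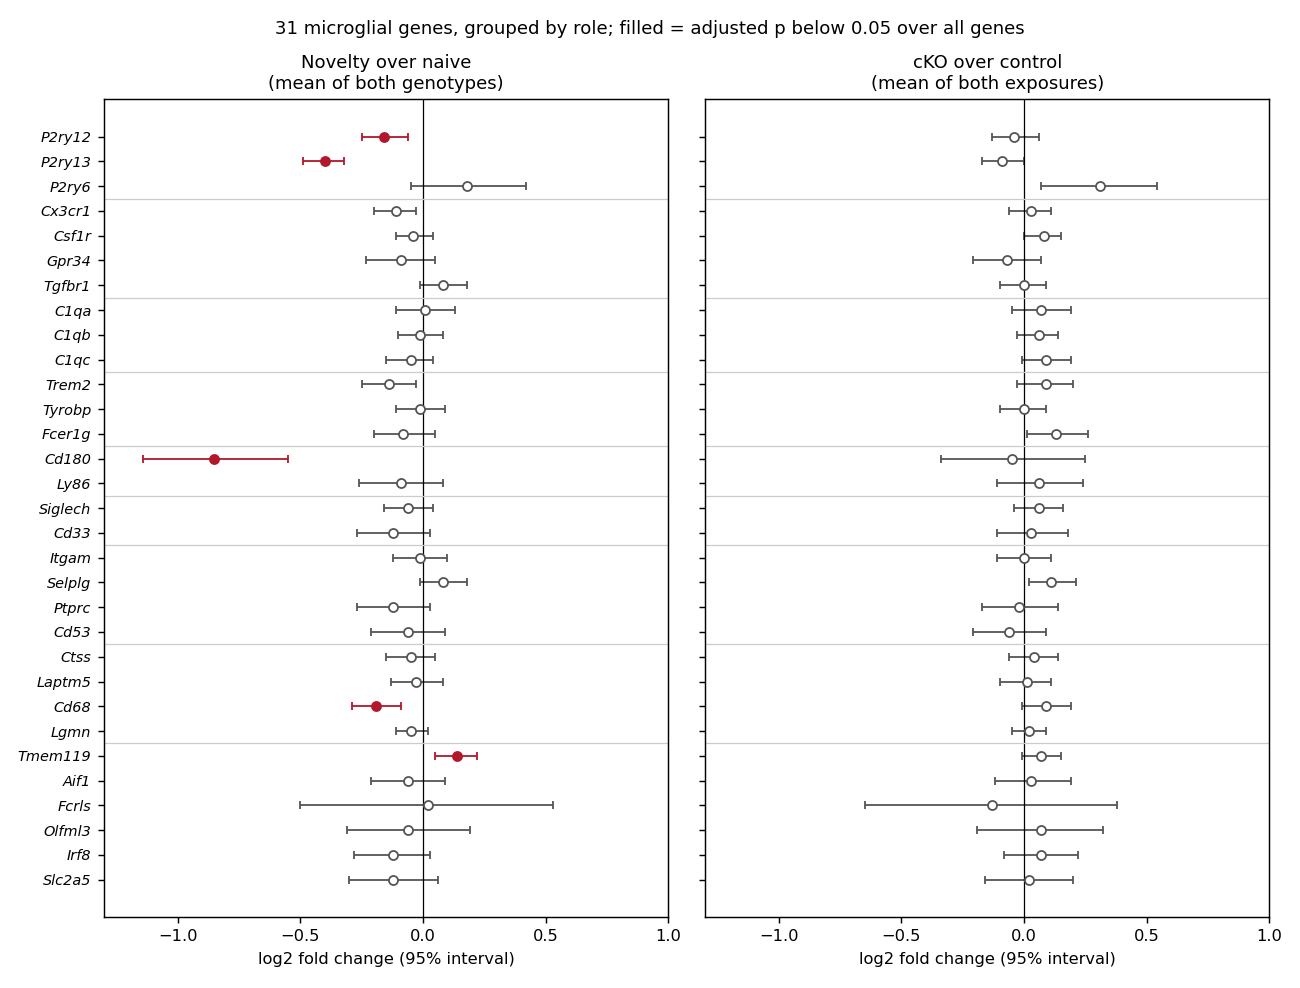
Log2 fold change with its 95% interval for the 31 microglial genes, for novelty over naive (left, mean of both genotypes) and cKO over control (right, mean of both exposures), grouped by role with grey lines between roles. Filled points passed at an adjusted p below 0.05 over all genes, 5 on the left and 0 on the right, and Fcrls has the widest intervals.

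The response to novelty was not shown to differ between genotypes for any member. In the test of the genotype by novelty interaction 0 of 31 members passed and 0% of 16744 genes passed in edgeR, with 688 genes at an unadjusted p below 0.05. DESeq2 also called 0. In edgeR 1 member was at an unadjusted p below 0.05. For P2ry13 the interaction was -0.14 on the log2 scale (95% interval -0.31 to 0.03), for Cd68 -0.06 (-0.25 to 0.14) and for Cd180 0.05 (-0.54 to 0.64). The unadjusted p by edgeR for Cd68, 0.75, was larger than its interval implies, so that interval may be too narrow. The member at an unadjusted p below 0.05 was Fcrls (log2 interaction 1.06, SE 0.49, unadjusted p by edgeR = 0.0435, adjusted p by edgeR = 1).

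Loss of Kat2a in neurons was accompanied by no called change in any of the 31 microglial genes. In the average over both exposures 0 of 31 passed, while 12% of 16744 genes did, 5.72% higher and 6.32% lower. Among naive mice 0 of 31 passed, where 0.801% of 16360 genes did, and after novelty 0 of 31 passed, where 4.53% of 16188 genes did. In the authors' deposited tables for these contrasts none of the 31 had an adjusted p below 0.05, where 3.18% of genes did in naive mice and 8.17% after novelty. The median log2 fold change of the 31 members was 0.03, against 0.01 over all genes tested, and 22 of 31 were positive, where 52% of all genes were. For 28 of 31 members the 95% interval lay within a 1.25-fold change, the exceptions being P2ry6, Cd180 and Fcrls. At an unadjusted p below 0.05 in edgeR stood 4 members in the average (P2ry6, Csf1r, Selplg and Fcer1g), 0 among naive mice and 2 after novelty. Over all genes these counts were 4453 of 16744, 2223 of 16360 and 3353 of 16188, and DESeq2 called 0 of 31 in each of these comparisons.

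P2ry6 came nearest, with a log2 fold change of 0.31 (SE 0.11, adjusted p by edgeR = 0.0777). It had 3.04 ± 0.604 CPM in cKO novelty and 2.54 ± 0.336 CPM in control novelty libraries (SD, n = 7 and 5), and 2.72 ± 0.535 CPM in cKO naive and 2.14 ± 0.438 CPM in control naive libraries (SD, n = 6 each), and the ranges overlapped. It passed without cKO naive library 4 or cKO novelty library 3. Csf1r averaged 105.0 ± 5.62 CPM in cKO novelty and 98.8 ± 3.98 CPM in control novelty libraries (SD, n = 7 and 5), and 107.0 ± 6.04 CPM in cKO naive and 102.0 ± 8.64 CPM in control naive libraries (SD, n = 6 each), with a log2 fold change of 0.08 (SE 0.04, adjusted p by edgeR = 0.172). C1qa, C1qb and C1qc had 0.07, 0.06 and 0.09, Selplg had 0.11 and Fcer1g 0.13. The purinergic receptor genes that fell with novelty had -0.04 (P2ry12, SE 0.05) and -0.09 (P2ry13, SE 0.04), and Cx3cr1 had 0.03 (SE 0.04).

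Markers of other cell types are given beside these values, averaged over exposures, where 6.32% of all genes were called lower. Of 10 oligodendrocyte genes, 8 fell in cKO mice (list median -0.29), whereas 1 of 10 was called among naive mice (median -0.20) and 0 of 10 after novelty (median -0.34). Their summed levels were 3230 to 6210 CPM in cKO novelty and 4670 to 5710 CPM in control novelty libraries, and 4190 to 5350 CPM in cKO naive and 5040 to 5330 CPM in control naive libraries. Of 11 endothelial and pericyte genes 2 fell (list median -0.14), of 10 astrocyte genes 1 fell (list median -0.04) and of 4 CA1 pyramidal genes 1 fell (list median -0.18). Border macrophage markers had 0 of 5 tested genes called, with a median of 0.04. Of 4 oligodendrocyte precursor genes 1 fell (list median -0.10), and of 5 dentate granule genes 1 fell (list median -0.21). Of 2 CA3 genes 0 were called, with a median of 0.43. The part of the lower oligodendrocyte markers, or of the other lists, in the microglial values was not tested.

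**Figure D4:**
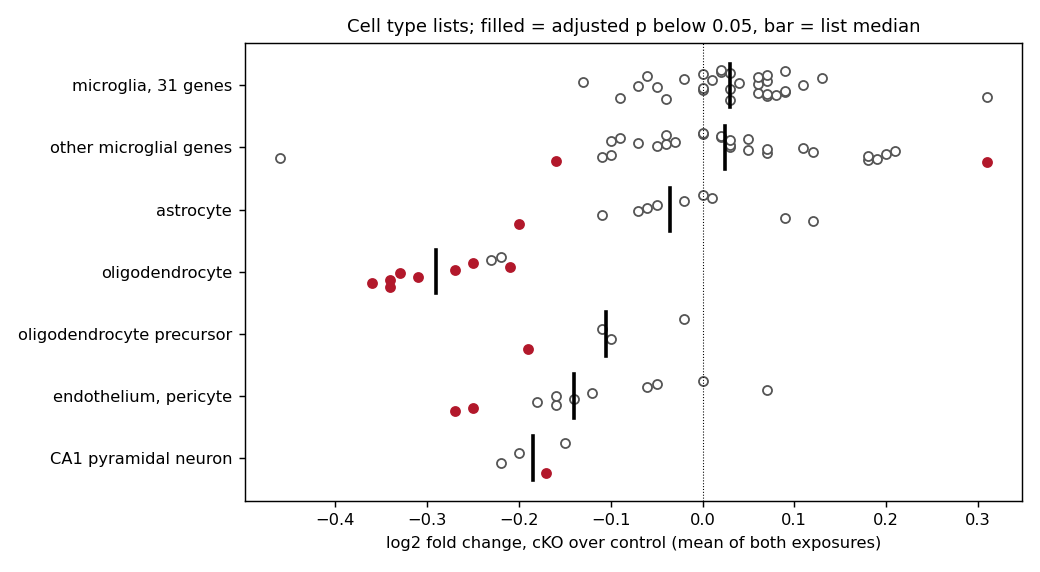
Log2 fold change of cKO over control (mean of both exposures) for each gene of the microglial panel and of lists for other cell types, with a bar at each list's median and filled points for an adjusted p below 0.05. No gene of the 31 in the top row is filled, whereas 8 of 10 oligodendrocyte genes are in this average, around a median of -0.29.

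Further genes of microglia and of the pathways around them were read from lists, whose counts stand beside the shares called over all genes in the same averages, 4.43% higher and 2.13% lower for novelty and 5.72% higher and 6.32% lower for genotype. Of 30 other microglial genes, 0 rose and 2 fell for novelty averaged over genotypes, Hpgds, which encodes a prostaglandin D synthase (log2 fold change -0.37, SE 0.08, adjusted p by edgeR = 0.00512), and the inhibitory collagen receptor gene Lair1 (-0.18, SE 0.05, adjusted p by edgeR = 0.0386). Their median was -0.03. Of the same 30 genes, 1 rose and 1 fell in cKO mice averaged over exposures, the cytohesin gene Cyth4 (0.31, SE 0.08, adjusted p by edgeR = 0.0112) and Entpd1 (-0.16, SE 0.05, adjusted p by edgeR = 0.0433), whose product breaks down extracellular ATP and ADP at the cell surface. Their median was 0.02.

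Of 12 tested ligands and partners of these receptors, 2 rose and 0 fell in cKO mice averaged over exposures, and 0 passed for novelty averaged over genotypes. Il34, a neuronal ligand of the receptor encoded by Csf1r, had 52.9 ± 7.89 CPM in cKO novelty and 41.0 ± 3.32 CPM in control novelty libraries (SD, n = 7 and 5), and 51.3 ± 4.66 CPM in cKO naive and 43.7 ± 4.98 CPM in control naive libraries (SD, n = 6 each). It rose by 0.30 on the log2 scale in the average (SE 0.06, adjusted p by edgeR = 0.00321). Nrros, which encodes a protein that anchors latent transforming growth factor beta on microglia, had 9.08 ± 1.06 CPM in cKO novelty and 7.2 ± 0.849 CPM in control novelty libraries (SD, n = 7 and 5), and 8.63 ± 1.36 CPM in cKO naive and 6.68 ± 1.07 CPM in control naive libraries (SD, n = 6 each). It rose by 0.35 (SE 0.08, adjusted p by edgeR = 0.00464).

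Of 12 complement genes other than C1q, 0 passed for novelty and 1 rose in cKO mice, the C1 inhibitor gene Serping1 (log2 fold change 0.65, SE 0.17, adjusted p by edgeR = 0.0117). Of 12 tested genes of Toll-like receptors and their partners, 1 rose and 1 fell with novelty. The genes were those of the nucleic acid sensors, Tlr7 (0.32, SE 0.09, adjusted p by edgeR = 0.0296) and Tlr9 (-0.38, SE 0.11, adjusted p by edgeR = 0.0338), and 0 of 12 passed for genotype. Of 14 tested genes of disease-associated microglia, 0 passed for novelty and 1 fell in cKO mice, the lysosomal protease gene Ctsb (-0.10, SE 0.03, adjusted p by edgeR = 0.0109). Of 14 cytokine and other inflammatory genes only 5 had enough reads to be tested, and 0 of them passed in either average.

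Fcrls, a microglial Fc receptor-like gene, and Olfml3, which encodes a secreted olfactomedin-like protein, varied widely between libraries. Within groups the SD of log2 levels had a median of 0.13 over the 31 members and was 0.68 for Fcrls, 0.34 for Cd180 and 0.32 for Olfml3. Fcrls had 12.6 to 32.1 CPM in cKO novelty and 4.97 to 25.7 CPM in cKO naive libraries, and 18.7, 28.9, 29.5, 14.7 and 5.32 CPM in control novelty and 15.7 to 32.4 CPM in control naive libraries, so that its groups overlapped. Across the 24 libraries the log2 levels of both genes went together (Pearson r = 0.83, Spearman rho = 0.67). After subtraction of group means r was 0.81, and without cKO naive library 2 and control novelty library 5, the libraries farthest from the median of Fcrls, it was 0.66 over 22 libraries. The pair was chosen after the values were seen, so these are a description with no test. The other 29 members had r between -0.34 and 0.30 with Fcrls.

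The 20 genes whose levels were most like that of Fcrls, by the size of Pearson r over 24 libraries among 14983 genes of at least 1 CPM on average, had r of 0.73 or more in size. Fcrls lies on chromosome 3 (87250758 to 87263738, minus strand), and so do 12 of the 20, Olfml3 (103722222 to 103738001, minus strand) among them, against 4.96% of the genes compared. The 12 begin between 86.1 and 137.9 Mb. The first in order was Rps3a1, a ribosomal protein gene on that chromosome (r = 0.94), whose level ranged from 1.10 to 114.0 CPM, and the next was Rps3a3 on chromosome 13 (r = -0.87). Rps3a1 and Rps3a3 are near-identical copies and reads without a unique alignment were not counted, so their levels are uncertain. The part of this in their r with Fcrls was not tested. P2ry13 and P2ry12 also lie on chromosome 3, at 59.2 Mb and so outside the span of 86.1 to 137.9 Mb. Their r with Fcrls was -0.13 and -0.16. The members Ctss (95.5 Mb) and Cd53 (106.8 Mb) begin within that span and had r of 0.27 and 0.22.

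**Figure D5:**
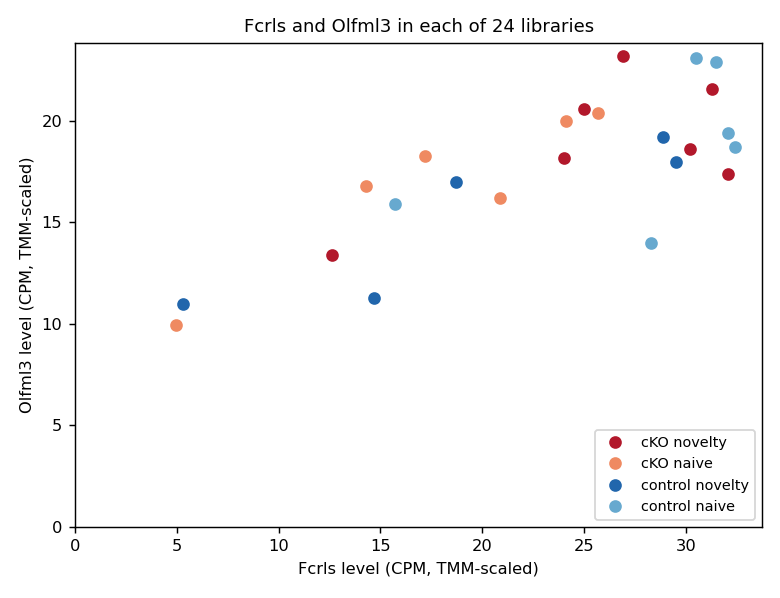
Level of Olfml3 against level of Fcrls (CPM, TMM-scaled) with 1 point per library, coloured by group. Points run from 4.97 CPM of Fcrls with 9.93 CPM of Olfml3 to libraries above 30 CPM of Fcrls (r = 0.83 on log2 levels), and the lowest library of each group lies between 4.97 and 15.7 CPM of Fcrls.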

How the data were processed

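Polyadenylated RNA of 24 CA1 samples was sequenced with a kit that does not mark strand, per the labels' protocols. Raw read counts per gene were deposited for each library; the submitters' processing notes name STAR 2.3.0, HTSeq, DESeq2 and GRCm38.p2. Of the count tables' entries, 5 name no gene and were left out, among them reads outside genes (7.58 to 10.4% of a table's total) and reads without a unique alignment (14.8 to 18.0%). The authors also deposited 4 pairwise tables with log2 fold changes, p-values and a mean signal (base mean) per gene, per the file headers, and these are quoted only where named. Gene names came from those tables and, for genes outside them, from a name table. Symbols in the text are current (Nrros is deposited under an older symbol).

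Groups came from the labels. Counts were fitted with edgeR 4.0.16 (TMM, low-count filter at 10 reads, robust quasi-likelihood F test) in R 4.3.3, each pair of groups on its own libraries and the averages and interaction on all 24, with p-values adjusted over all genes tested. The code was tested on simulated counts. RPKM used merged exon lengths of GENCODE M21. Correlations used log2(CPM + 0.5). Coordinates of genes are those of the deposited tables. Alternatives were DESeq2 1.42.0, RLE and upper-quartile scaling, no low-count filter, the library number as a block or in a lower and an upper part, and leaving out each library. For members that passed in any contrast, values by library were given for the control novelty group, and the lowest, median and highest for the other groups. Up to 2 called genes of each pathway list were named by smallest p. The members and lists were chosen with earlier results of these data known. Depth of 10.7 to 35.8 M reads per library limits the precision of the members with fewest reads, Cd180 and P2ry6. Protein sequences were not used here.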

Additional observations from a re-analysis of the deposited data

Results flagged for a closer look

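Within groups of 5 to 7 libraries, 10 of 124 sets of 1 member in 1 group (8.06%) had a library far from the rest by Dixon's criterion at 95%, where chance flags about 1 in 20. Trem2 was low in control naive library 2, at 12.7 CPM against 15.0 to 15.5 CPM in the others, and Siglech was high in the same library, at 30.6 CPM against 20.5 to 22.6 CPM. Itgam was low in cKO novelty library 7 (25.3 CPM against 34 to 37.6 CPM), as was Fcrls (12.6 CPM against 24 to 32.1 CPM). Fcrls was also low in control naive library 3 (15.7 CPM against 28.3 to 32.4 CPM). Siglech was low in cKO naive library 3 (20.9 CPM against 23.6 to 25.2 CPM), and Aif1 in control naive library 6 (4.69 CPM against 6.21 to 6.92 CPM). High values were those of Tgfbr1 in cKO novelty library 2 (49.5 CPM against 38.5 to 42.8 CPM), Slc2a5 in control novelty library 1 (7.27 CPM against 5.22 to 5.65 CPM) and Laptm5 in control naive library 1 (41.2 CPM against 28.5 to 32.9 CPM). None of the 5 genes called for novelty was among these, and the causes were not tested.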

How the results depend on the processing

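P2ry13, Cd180, Cd68 and P2ry12 stayed called and lower in the average over genotypes under DESeq2, both other scalings, no low-count filter, the replicate block and the library number part. DESeq2 called more genes, 653 (novelty in cKO mice), 377 (novelty in control mice), 465 (cKO against control, naive) and 1168 (cKO against control, after novelty), and 4 microglial genes for novelty in cKO mice (Cd180, Cd68, P2ry12 and P2ry13). Without the low-count filter 1 microglial gene was called there, and the adjusted p of Cd68 by edgeR was 0.111. The reason for this shift was not tested. Upper-quartile scaling moved the higher share of novelty calls to 67% from 79.9% in cKO mice and to 53.9% from 67.5% in the average, and of genotype calls in the average to 58.5% from 47.5%. Under it Cx3cr1 was called lower and Tmem119 was not called for novelty in the average.

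Pairing by the library numbers in the titles was not seen in most pairs. Correlations of deviations between same-numbered libraries were -0.128 to 0.279, over 0.1 in at most 1 pair of a comparison, and the best match in at most 1. With 5 or 6 pairs in a comparison, this check cannot exclude a factor shared by number. With the replicate block the counts were 207 genes and 1 microglial gene (P2ry13) for novelty in cKO mice, 97 genes and 0 microglial genes for novelty in control mice, where P2ry13 had an adjusted p of 0.0907 and Cd180 of 0.051, 70 genes for cKO against control in naive mice and 398 after novelty, and the average calls stayed. The cause was not tested. Within libraries numbered 1 to 3 and those numbered 4 and above, the average log2 change with novelty was -0.45 and -0.35 for P2ry13, -0.54 and -0.96 for Cd180, -0.20 and -0.13 for Cd68, -0.21 and -0.11 for P2ry12 and 0.11 and 0.16 for Tmem119.

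Leaving out 1 library gave 238 (without cKO naive library 2) to 452 genes and 1 to 3 microglial genes for novelty in cKO mice, and 113 (without control novelty library 2) to 255 genes and 0 (without that same library) to 2 microglial genes for novelty in control mice. It gave 40 (without control naive library 6) to 166 genes for cKO against control in naive mice and 324 (without control novelty library 2) to 1025 after novelty, with 0 microglial genes in each. In the average for novelty it gave 850 to 1262 genes, with 3 to 6 microglial genes among them. There were 3 without cKO novelty library 1 or 3, cKO naive library 6 or control naive library 1 or 2. In the average for genotype it gave 1480 to 2210 genes, with 0 to 1 microglial genes among them. P2ry6 passed there without cKO novelty library 3 or cKO naive library 4.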
